A study of Mus musculus with 12 samples.

Results

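A set of 9 genes that govern how mouse liver makes, takes up, stores and breaks down glucose was followed across 12 liver RNA-seq libraries. They are Hk2, G6pc, Pck1, Fbp1, Pklr, Slc2a1, Slc2a2, Pfkfb3 and Gys2, and were taken by symbol from a list made with earlier results of these data known. All 9 were among the 22609 gene symbols of the count tables, and all 9 were among the 13255 genes that passed the filter on low counts. The livers came from male C57BL/6 mice aged 8 weeks that were wild type (WT) or knockout (KO) for TRIM21, a cytosolic antibody receptor and E3 ubiquitin ligase. Each mouse had received either diethylnitrosamine (DEN), a hepatotoxic carcinogen that the liver itself activates, at a single intraperitoneal dose of 200 mg/kg in PBS, or PBS alone, and liver was taken 48 h later. There were 3 PBS WT, 3 PBS KO, 3 DEN WT and 2 DEN KO libraries, and 1 DEN library labelled as TRIM21 heterozygous. The sources used here do not state feeding, time of day or the design of the Trim21 allele. The titles number each library but do not say that each is a separate animal, and a p-value here speaks only of how far the numbered libraries of a group lie apart. Libraries are named below by title, as PBSWT_541 for a PBS WT library.

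The liver buffers blood glucose. In fasting it releases glucose, made from lactate and amino acids by gluconeogenesis or freed from glycogen, and after feeding it takes glucose up, stores it as glycogen and burns part of it by glycolysis. Gluconeogenesis is known to be strongest in hepatocytes near the portal vein and glycolysis in those around the central vein. Adult hepatocytes carry liver isozymes for these steps (Pklr, Slc2a2, Gys2), whereas Hk2, Pkm, Slc2a1 and Gys1 are better known from muscle, brain, blood cells and growing or transformed cells.

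Promoter sequences of members on both sides of the result are shown here, since Pklr, G6pc and Slc2a2 fell after DEN and Slc2a1 rose (values below). They come from RefSeq for mouse assembly GRCm38.p6, which held 8 of the 9 members (Gys2 had no entry). Each runs 5′ to 3′ on the plus strand from 250 bases before to 50 bases after an annotated start site, and capitals mark motif matches. The counts were made on another build, mm9, so these coordinates apply to the sequences alone. For Pklr the window is the downstream of its 2 listed promoters.
Pklr chr3:89136373-89136672: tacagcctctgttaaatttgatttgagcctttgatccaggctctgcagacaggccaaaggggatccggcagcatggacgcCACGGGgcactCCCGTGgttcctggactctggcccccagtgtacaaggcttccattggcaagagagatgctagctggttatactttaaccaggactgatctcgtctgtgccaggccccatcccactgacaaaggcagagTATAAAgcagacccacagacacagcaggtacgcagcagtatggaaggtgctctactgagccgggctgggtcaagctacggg
G6pc chr11:101367466-101367765: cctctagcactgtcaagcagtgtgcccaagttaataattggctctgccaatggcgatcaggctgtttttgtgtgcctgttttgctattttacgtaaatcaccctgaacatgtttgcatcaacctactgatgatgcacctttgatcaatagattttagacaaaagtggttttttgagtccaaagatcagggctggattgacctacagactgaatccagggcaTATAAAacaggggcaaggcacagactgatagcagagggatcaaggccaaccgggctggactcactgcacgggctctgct
Slc2a2 chr3:28697653-28697952: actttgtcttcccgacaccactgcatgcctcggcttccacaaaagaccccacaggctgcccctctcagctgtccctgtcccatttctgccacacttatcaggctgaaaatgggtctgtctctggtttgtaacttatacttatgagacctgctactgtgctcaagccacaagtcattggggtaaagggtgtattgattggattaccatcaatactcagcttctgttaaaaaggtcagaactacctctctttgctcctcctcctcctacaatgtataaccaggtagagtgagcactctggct
Slc2a1 chr4:119108495-119108794: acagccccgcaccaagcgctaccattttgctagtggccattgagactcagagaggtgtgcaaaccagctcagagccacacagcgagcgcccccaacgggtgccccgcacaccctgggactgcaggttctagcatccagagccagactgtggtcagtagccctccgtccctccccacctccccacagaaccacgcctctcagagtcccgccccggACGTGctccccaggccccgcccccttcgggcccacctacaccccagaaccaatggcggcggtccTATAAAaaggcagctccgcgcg

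In the Pklr window the capitals mark CACGGG and CCCGTG with 5 bases between them, starting 170 bases before the start site, and TATAAA at 31 bases before it. The first of these is the layout of the carbohydrate response element known from this promoter, through which the glucose-sensing factor ChREBP (gene Mlxipl) acts. Its letters were chosen for this gene after the values were known, and 1 of 32851 RefSeq promoters, 0.00304%, held it. G6pc had TATAAA at 29 bases before its start. Slc2a1 had ACGTG, the core of the hypoxia response element, at 36 bases before its start, and TATAAA at 28 bases after it. ACGTG was also in both Pfkfb3 promoters, as CACGTG in the second, and at 2 places in that of Hk2, members that did not rise. The Slc2a2 window held none of the motifs searched on both strands, which besides these were TGACGTCA (cyclic AMP response element), GTAAACA (forkhead) and CACGTG (E-box, which contains ACGTG). Over all 32851 promoters ACGTG was found in 19.6%, TATAAA in 13.6%, CACGTG in 7.15%, GTAAACA in 3.65% and TGACGTCA in 1.79%. These matches describe letters only.

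Gene counts totalled 17303124 to 23059252 per library. The factors by which library sizes were scaled (TMM) ran from 0.858 to 0.901 in the PBS libraries and from 1.13 to 1.30 in the DEN libraries of the 4 groups, so the split by treatment enters every CPM (a library's counts brought to a common, scaled total). The share of counts given to no gene was 71.6% to 78.7% in PBS libraries and 61.4% to 69.6% in DEN libraries, and non-unique reads per gene count ran from 2.38 to 3.54 in PBS and 1.42 to 2.12 in DEN. The part of this split in the DEN comparisons was not tested. Trim21 had 93 to 127 counts in PBS WT, 113 to 225 in DEN WT and 3 to 5 in the KO libraries. The library labelled heterozygote had 7, which lies near the KO libraries and goes against its label. Markers of hepatocytes were abundant in all 12 libraries, with sums over 8 genes of 119000 to 133000 CPM in PBS WT, 87700 to 119000 in DEN WT, 107000 to 143000 in PBS KO and 83900 to 91000 in DEN KO. The 10 markers of pericentral hepatocytes summed to 18100 to 25000 CPM in the PBS libraries, 522 to 2050 in DEN WT and 3230 to 4210 in DEN KO.

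After DEN, WT livers held less mRNA of most of the 9 genes. EdgeR's quasi-likelihood test called 6 lower and 1 higher at an adjusted p under 0.05. Pklr fell 7.89-fold, Pfkfb3 5.32-fold, Gys2 4.02-fold, Slc2a2 3.73-fold, G6pc 2.23-fold and Pck1 1.90-fold, while Slc2a1 rose 1.55-fold. Fbp1 and Hk2 did not pass the test. DEN changed much of the transcriptome, so that 55.8% of all 13255 genes were called, 29.2% higher and 26.7% lower, against 7 of 9 members. The median log2 fold change was -1.16 over the members and 0.04 over all genes tested. In bulk tissue, fewer cells of a type and less RNA per cell cannot be told apart. In KO livers 4 members were called lower (Pklr, G6pc, Gys2, Slc2a2) and 1 higher (Slc2a1), beside 22.7% of all genes called, 12% higher and 10.7% lower.

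**Figure D1:**
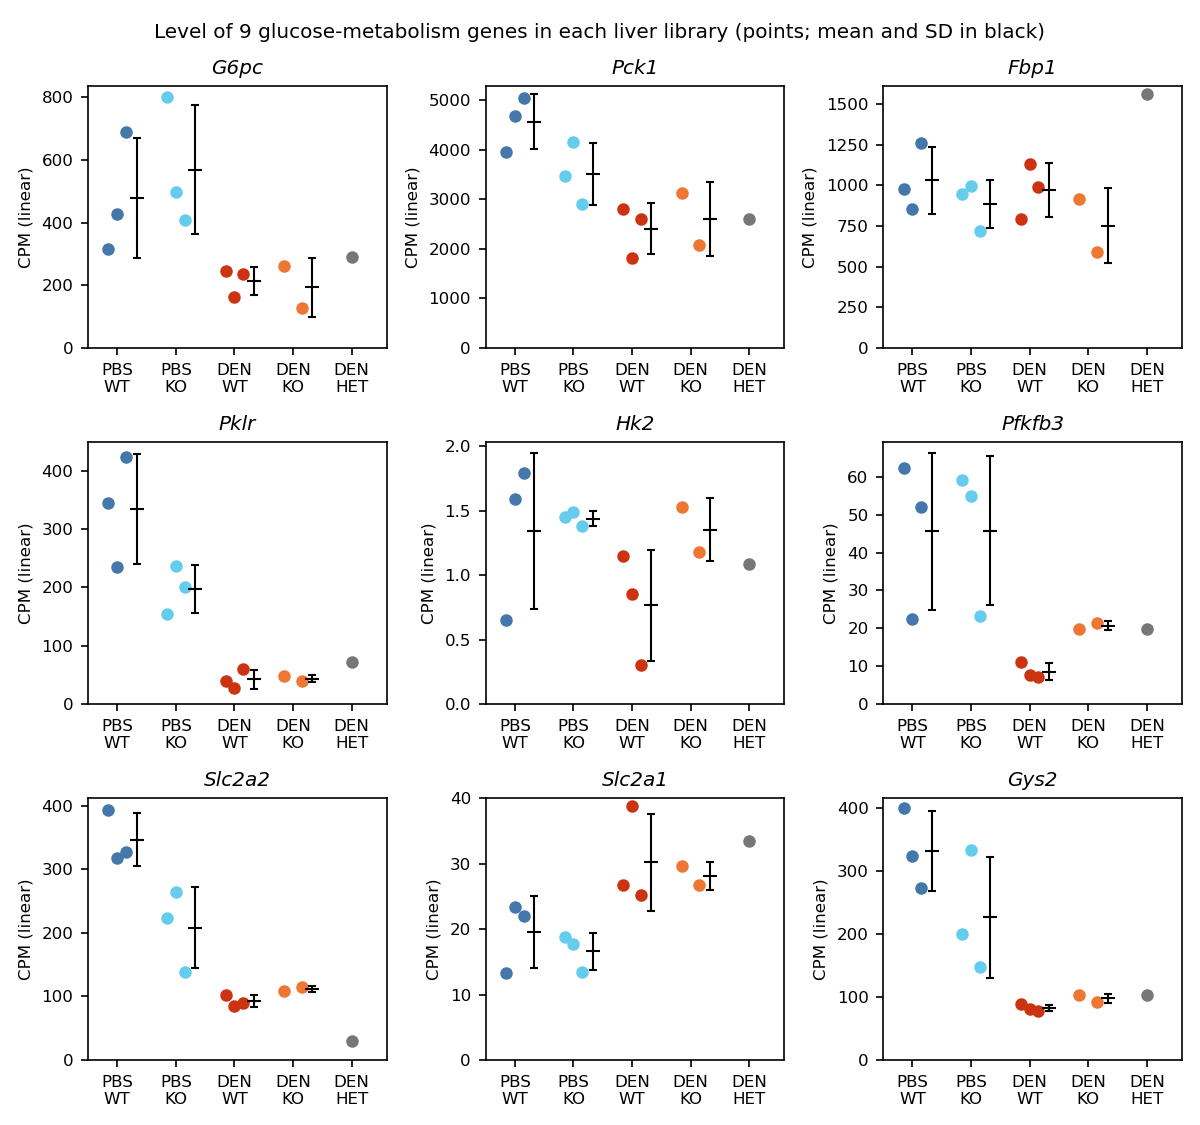
Level of each of the 9 genes in each library, in CPM on a linear axis that starts at 0, with 1 panel per gene. Points are libraries by group, and the black bar is the group mean with its SD (the heterozygote-labelled group is 1 library). Pklr, Slc2a2 and Gys2 stand apart between all PBS and all DEN libraries, whereas the Fbp1 groups overlap.

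Among the genes of glucose production, G6pc encodes the catalytic subunit of glucose-6-phosphatase, which releases free glucose as the last step of both gluconeogenesis and glycogen breakdown. PBS WT libraries held 316, 429 and 690 CPM of G6pc and PBS KO libraries 408, 498 and 801 CPM. DEN WT libraries held 163, 236 and 245 CPM and DEN KO libraries 127 and 261 CPM. Every DEN library lay below every PBS library, and the PBS libraries themselves spread widely. G6pc fell by 1.16 on the log2 scale in WT (SE 0.37, edgeR adjusted p = 0.021) and by 1.55 in KO (SE 0.43, adjusted p = 0.026). Neither call was firm. The WT call was lost with no scaling factor (adjusted p = 0.14) and without DENWT_995, DENWT_996 or PBSWT_545 (adjusted p 0.054 to 0.076), and the KO call without DENKO_309, the lower of the pair (adjusted p = 0.2), without PBSKO_154 (0.061), with no scaling factor (0.056) and with no filter on low counts (0.052).

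Pck1, the cytosolic phosphoenolpyruvate carboxykinase that turns oxaloacetate into phosphoenolpyruvate at the entry to gluconeogenesis, was the most abundant of the 9. It stood at 3960, 4680 and 5050 CPM in PBS WT and at 1820, 2600 and 2800 CPM in DEN WT. The KO groups lay closer to each other, at 2900, 3460 and 4160 CPM under PBS and 2070 and 3120 CPM after DEN. The WT groups did not overlap, and the KO groups did, since DENKO_141 lay above the lowest PBS KO library. Pck1 fell by 0.92 on the log2 scale in WT (SE 0.22, adjusted p = 0.0034), a call lost with no scaling factor (adjusted p = 0.079). The KO value was -0.43 (SE 0.25, 95% interval -0.98 to 0.11, adjusted p = 0.24).

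Fbp1, the liver fructose-1,6-bisphosphatase that opposes phosphofructokinase, showed no called difference. Its levels were 858, 976 and 1260 CPM in PBS WT, 795, 991 and 1130 in DEN WT, 718, 945 and 998 in PBS KO and 588 and 916 in DEN KO. All 4 groups overlapped. The DEN log2 fold change was -0.08 in WT (95% interval -0.55 to 0.39) and -0.24 in KO (95% interval -0.76 to 0.29). With no scaling factor both turned positive, at 0.41 and 0.15, and stayed below the shift that this setting gives the median of all genes (0.53 in WT and 0.41 in KO, against 0.04 and 0.01 with TMM). Measured from that median, the WT value was -0.12 under either scaling.

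Of the glycolytic members Pklr, the liver pyruvate kinase that catalyses the last step of glycolysis, moved most. PBS WT libraries held 235, 344 and 424 CPM, a mean of 334 ± 94.8 (SD, n = 3), and DEN WT libraries 27.9, 38.8 and 60.1 CPM, a mean of 42.3 ± 16.3 (SD, n = 3). In KO the levels were 155, 201 and 236 CPM under PBS and 39.6 and 47.9 CPM after DEN. Every DEN library lay far below every PBS library. Pklr fell by 2.98 on the log2 scale in WT (SE 0.30, adjusted p = 1.3e-05) and by 2.17 in KO (SE 0.34, adjusted p = 0.0012). Of the members called in KO it was the only one that kept its call in all 18 alternatives. In WT, Pklr, Slc2a2, Pfkfb3 and Gys2 did so.

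Pfkfb3 encodes a bifunctional enzyme whose kinase side dominates and which makes fructose 2,6-bisphosphate, the activator of phosphofructokinase and inhibitor of fructose-1,6-bisphosphatase. Its PBS levels were uneven, at 22.5, 52.0 and 62.2 CPM in WT and 23.2, 54.9 and 59.2 CPM in KO. DEN WT libraries held 7.07, 7.56 and 11.1 CPM and DEN KO libraries 19.8 and 21.5 CPM. In both genotypes the DEN libraries lay below the PBS libraries, by a wide margin in WT and a narrow one in KO. Pfkfb3 fell by 2.41 on the log2 scale in WT (SE 0.45, adjusted p = 0.0016). The KO value of -1.15 (SE 0.49, 95% interval -2.25 to -0.05) was not called by edgeR (adjusted p = 0.12). DESeq2 called it (adjusted p = 0.022), as did edgeR without PBSKO_549, the lowest of its group (adjusted p = 0.033).

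Hk2, the hexokinase of muscle and many tumours, was barely expressed, with 9 to 40 counts per library. PBS WT libraries held 0.650, 1.59 and 1.79 CPM and DEN WT libraries 0.301, 0.855 and 1.15 CPM. PBS KO libraries held 1.38, 1.45 and 1.49 CPM and DEN KO libraries 1.18 and 1.53 CPM. Groups overlapped in both genotypes, and the log2 fold change after DEN was -0.83 in WT (95% interval -1.80 to 0.15, adjusted p = 0.14) and -0.08 in KO (95% interval -1.10 to 0.93, adjusted p = 0.92). Without PBSWT_541, the lowest of its group, the WT value was called (-1.16, adjusted p = 0.042).

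The 2 glucose transporters moved in opposite directions. Slc2a2 encodes GLUT2, the low-affinity carrier by which hepatocytes both take up and release glucose. PBS WT libraries held 318, 328 and 394 CPM of Slc2a2 and DEN WT libraries 85.4, 89.8 and 103 CPM. In KO the values were 138, 223 and 264 CPM under PBS and 109 and 115 CPM after DEN. DEN libraries were lower without overlap in both genotypes, with a smaller gap in KO. Slc2a2 fell by 1.90 on the log2 scale in WT (SE 0.20, adjusted p = 6.4e-06) and by 0.90 in KO (SE 0.22, adjusted p = 0.012). The KO call was lost without DENKO_141 or DENKO_309 (adjusted p 0.075 and 0.082), with no scaling factor (0.081) and with the 2 KO groups fitted alone (0.05).

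Slc2a1 encodes GLUT1, the transporter of erythrocytes, endothelium and many proliferating cells, and was the single member that rose. Its levels were 13.3, 22.0 and 23.4 CPM in PBS WT and 25.3, 26.7 and 38.8 CPM in DEN WT. KO libraries stood at 13.4, 17.7 and 18.8 CPM under PBS and at 26.7 and 29.7 CPM after DEN. All DEN libraries exceeded all PBS libraries, by a small margin in WT. The log2 fold change was 0.63 in WT (SE 0.22, adjusted p = 0.028) and 0.76 in KO (SE 0.24, adjusted p = 0.04). The WT call was lost without DENWT_995 (0.41, adjusted p = 0.13) or PBSWT_541 (0.41, adjusted p = 0.1), and the KO call without any single one of the 5 KO libraries (adjusted p 0.053 to 0.17). Summed endothelial markers (7 genes) ran from 80.0 to 140 CPM in PBS WT and 142 to 168 CPM in DEN WT, from 115 to 164 in PBS KO and 125 to 151 in DEN KO. Neutrophil and monocyte markers (9 genes) summed to 2.41 to 9.66 CPM in PBS and 33.4 to 92.1 CPM in the 5 DEN libraries, with Camp at 0 in PBS WT, PBS KO and DEN KO and Ngp at 0 in PBS WT and DEN KO. Of 6 erythroid markers the 4 globin genes were at 0 in all groups, and the sum ran from 152 to 205 CPM in PBS and from 16.1 to 86.0 CPM in DEN. The part of these cells in the Slc2a1 result was not tested.

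Gys2, the liver glycogen synthase that lengthens glycogen chains, stands for glycogen storage among the members. PBS WT libraries held 273, 323 and 399 CPM and DEN WT libraries 78.2, 80.7 and 88.5 CPM. KO libraries held 147, 199 and 333 CPM under PBS and 92.4 and 103 CPM after DEN. The DEN libraries lay close together and below all PBS libraries. Gys2 fell by 2.01 on the log2 scale in WT (SE 0.25, adjusted p = 3.5e-05) and by 1.21 in KO (SE 0.28, adjusted p = 0.009). The KO call was lost without DENKO_309 (-1.14, adjusted p = 0.098) and with the 2 KO groups fitted alone (adjusted p = 0.05).

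**Figure D2:**
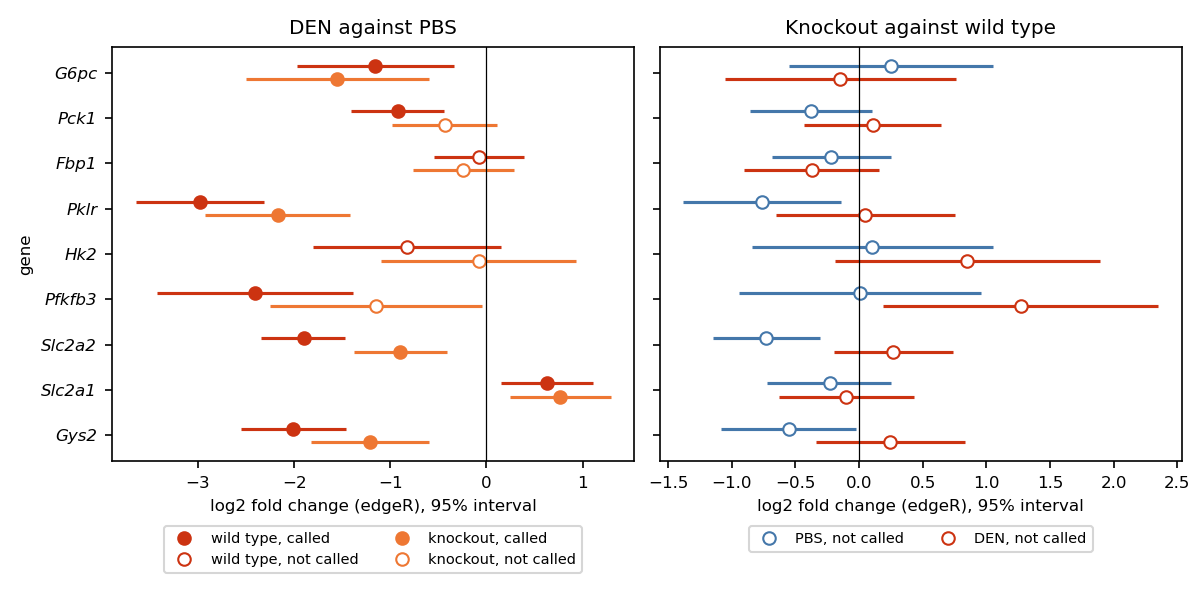
Log2 fold change of each gene with its 95% interval, for DEN against PBS (left, WT and KO) and for KO against WT (right, under PBS and after DEN). Filled points passed the test at an adjusted p under 0.05 and open points did not. On the left Pklr lies farthest from 0 in both genotypes, at -2.98 and -2.17, and on the right no point is filled.

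In all, 7 of 9 members had no overlap between DEN WT and PBS WT libraries, where 64.8% of all tested genes had none, and 6 of 9 had none in KO, where 51.4% had none. Markers of hepatocyte zones moved in the same samples as the members. In WT all 10 pericentral markers were called lower (median log2 fold change -4.62) and in KO 8 of 10 (median -2.19). Among 8 periportal markers 3 were called higher and 4 lower in WT, and 1 higher and 2 lower in KO. The periportal sum was 8990 to 9510 CPM in PBS WT and 7510 to 7910 CPM in DEN WT, and in KO the groups overlapped, at 7200 to 8770 CPM under PBS and 6250 to 8700 CPM after DEN. Of the 8 general hepatocyte markers, 3 were called lower in each genotype, with a median log2 fold change of -0.30 in WT and -0.49 in KO. No marker of these lists was at 0 in any group. The part of these cells in the members' values was not tested.

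Per kilobase of annotated exon, levels can be compared between genes. In PBS WT, Pck1 was highest at 1330 ± 162 CPM per kb (SD, n = 3), then Fbp1 at 605 ± 120, G6pc at 198 ± 79.6, Gys2 at 125 ± 23.8, Pklr at 103 ± 29.3 and Slc2a2 at 60.2 ± 7.21. Pfkfb3 at 6.03, Slc2a1 at 5.58 and Hk2 at 0.225 CPM per kb followed. Libraries of G6pc and Gys2, of Gys2 and Pklr, and of Pfkfb3 and Slc2a1 overlapped in this order, and the other neighbours did not. In DEN WT the order began with Pck1 at 701 and Fbp1 at 572 CPM per kb, which then overlapped. Pklr, at 13.1 ± 5.05 CPM per kb, now overlapped both Slc2a2 at 16.1 ± 1.62 and Slc2a1 at 8.63 ± 2.12, while Pfkfb3 at 1.13 CPM per kb had dropped below Slc2a1.

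A ratio of 2 genes' counts within a library does not depend on library scaling. Pairs set a member against another form of the same enzyme or transporter, or against an enzyme that works in the opposing direction. Of 9 pairs tested, 7 are reported. In 6 of these 7 the DEN WT and PBS WT libraries did not overlap, and likewise in 6 of 7 in KO. With 3 against 3 or 2 against 3 libraries the exact two-sided permutation test cannot go below p = 0.1, so no ratio could pass, and adjusted over 36 tests the smallest value was 0.26. The differences below are therefore given as sizes.

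The largest difference in ratio among them was that of pyruvate kinase. Pkm2, the symbol in the tables for the gene of the muscle and M2 forms, had 6.50, 8.16 and 9.17 CPM in PBS WT and 13.9, 19.1 and 20.7 CPM in DEN WT, and was called higher in both genotypes (log2 fold change 1.17 and 1.11, adjusted p = 0.00033 and 0.0028). In PBS WT there were 0.0190, 0.0193 and 0.0391 Pkm2 counts per Pklr count, and in DEN WT 0.232, 0.493 and 0.741. The mean ratio was 18.1-fold higher after DEN in WT and 9.80-fold higher in KO (both exact permutation p = 0.1). Pklr counts still exceeded Pkm2 counts in every library.

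The transporter ratio Slc2a1 to Slc2a2 was 0.0338, 0.0671 and 0.0738 in PBS WT and 0.258, 0.282 and 0.455 in DEN WT, a 5.83-fold higher mean. In KO it was 3.07-fold higher, from 0.0672, 0.0842 and 0.0971 to 0.233 and 0.271 (both exact permutation p = 0.1). Gys1 to Gys2 was 3.96-fold higher in WT and 2.17-fold in KO, and Pck2 to Pck1 2.12-fold and 2.09-fold, all without overlap. Gys1 and Pck2 themselves were not called in either genotype. Pck1 to Pklr was 4.20-fold higher in WT and 3.27-fold in KO, without overlap in either. The kinase pair ran the other way, with Pfkfb3 to Pfkfb1, the main liver form, 2.18-fold lower in WT and 2.44-fold lower in KO (exact permutation p = 0.1 and 0.2). Fbp1 to Pfkl, liver phosphofructokinase, overlapped in both genotypes.

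**Figure D3:**
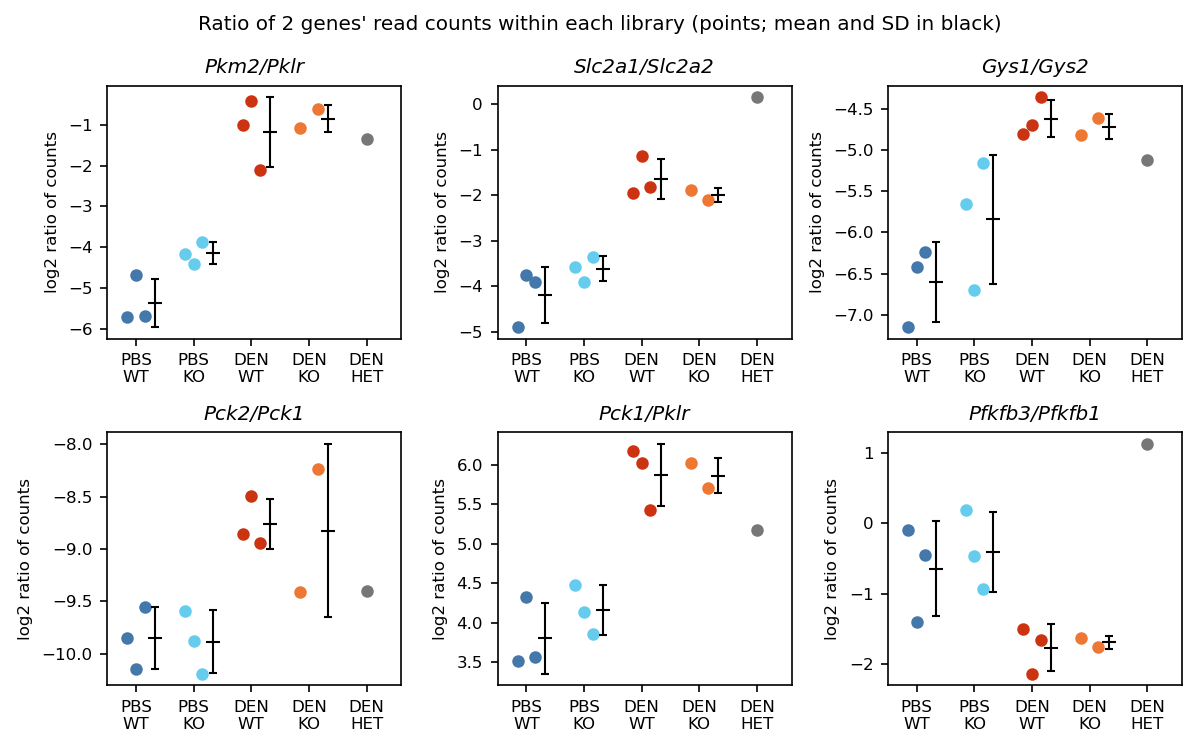
Log2 ratio of the counts of 2 genes within each library for 6 pairs, by group, with the group mean and SD in black. Higher points mean more of the first-named gene. Pkm2/Pklr and Slc2a1/Slc2a2 are higher in all DEN than in all PBS libraries, and Pfkfb3/Pfkfb1 is lower in DEN WT than in PBS WT and in DEN KO than in PBS KO.

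Among the other isozymes of the members' families, Pfkfb1 fell by 1.17 on the log2 scale in WT (adjusted p = 3e-04) and Pfkfb2 rose by 1.01 (adjusted p = 0.001). Fbp2, the muscle fructose-1,6-bisphosphatase, had 3 to 8 counts in PBS WT and 67 to 69 in DEN WT, and 1 to 5 and 67 to 101 in KO. It was called higher in both, at 3.27 and 4.51 on the log2 scale (adjusted p = 3.9e-05 and 3.6e-05), yet stayed at or below 4.26 CPM while Fbp1 stood at 588 CPM or more. G6pc3, the ubiquitous phosphatase, rose by 0.47 in WT (adjusted p = 0.027), a call lost when any 1 of DENWT_995, DENWT_996, PBSWT_541 and PBSWT_545 was left out (adjusted p up to 0.1). Hk1, Pck2, Pfkfb4, Slc2a3, Slc2a8 and Gys1 were not called, with WT values of 0.06, 0.12, 0.00, 0.64, -0.03 and -0.01. G6pc2 and Slc2a4 had too few counts to be tested (2 and 54 over all libraries).

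The wider pathways were taken from fixed lists, of which members are part. Over all genes tested in WT, 29.2% were called higher and 26.7% lower. Of 19 tested glycolysis genes 4 were called higher in WT (Eno2 2.09, Eno3 1.20, Pkm2 1.17 and Aldoa 0.52 on the log2 scale) and 6 lower (among them Pklr at -2.98 and the brain aldolase Aldoc at -2.67), with a median of 0.02. Of 12 gluconeogenesis genes 3 were higher (Fbp2, Got1 1.37 and G6pc3) and 4 lower (Slc37a4, the glucose 6-phosphate transporter that works with G6pc, at -1.18, then G6pc, Mdh1 at -0.99 and Pck1). Glycogen genes leaned down, with 13 of 24 lower and 5 higher and a median of -0.64. Pygl, liver glycogen phosphorylase, fell by 2.47, Ppp1r3b, a glycogen-targeting phosphatase subunit, by 2.28 and Gbe1, the branching enzyme, by 2.10. Among the 5 higher were Phkg1 at 3.63, Pgm1 at 1.70 and Pygm at 1.23. Phkg1 and Pygm had low levels, at means of 0.998 and 2.20 CPM in DEN WT. The Pygm call was lost without DENWT_996 or PBSWT_541 (adjusted p up to 0.096). Eno2 was barely expressed, at a mean of 0.0958 CPM in PBS WT and 0.431 CPM in DEN WT. It lost its call without DENWT_995, DENWT_996, PBSWT_542 or PBSWT_545 (adjusted p up to 0.1). Without the members these 3 splits were 4 and 5 of 17, 3 and 2 of 9, and 5 and 12 of 23. They moved with the scaling: with no scaling factor 9 glycolysis genes were higher and 4 lower, 5 and 2 gluconeogenesis genes, and 6 and 7 glycogen genes. Eno1 had 1 count over all 12 libraries and was not tested. Gapdh was tested but had few reads, at a mean of 1.51 CPM in PBS WT and 1.66 CPM in DEN WT. Non-unique reads were counted to no gene, and their part in these low counts was not tested.

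In the other lists, WT calls after DEN were 1 higher and 2 lower of 5 genes of fructose 2,6-bisphosphate control, 1 and 2 of 8 hexose transporters (Slc2a5, a fructose carrier, at -2.63), 0 and 3 of 8 genes of fructose and galactose use (Sord -2.07, Khk -1.70, Galm -1.59), and 6 and 6 of 16 of lactate and pyruvate handling (Pdk4 3.90, Pdk1 -2.29). Hormone and transcription control genes leaned lower, 12 of 24 against 3 higher, beside 26.7% lower and 29.2% higher of all genes. There Nr0b2 fell by 3.84, Mlxipl, which encodes ChREBP, by 2.59 and Srebf1 by 2.30, and Igfbp1 rose by 1.85 and Ppargc1a by 1.36. The Igfbp1 call was lost in 6 of 18 alternatives, without DENWT_307, DENWT_995, PBSWT_541 or PBSWT_542 among them (adjusted p up to 0.1). Hypoxia-inducible genes were 3 higher and 5 lower of 14. With no scaling factor the splits were 2 and 2, 5 and 2, 2 and 3, 9 and 3, 7 and 7, and 4 and 1 in the same order of lists.

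In KO the called genes of a list numbered fewer than in WT except for hexose transporters. Fewer genes were called in KO over the whole transcriptome too, 22.7% against 55.8% in WT, and DEN KO had only 2 libraries. The difference in list counts was not tested. Higher and lower calls were 3 and 2 of 19 for glycolysis, 1 and 2 of 12 for gluconeogenesis, 1 and 7 of 24 for glycogen, 1 and 0 of 5 for fructose 2,6-bisphosphate control and 3 and 1 of 8 for hexose transporters. They were 0 and 2 of 8 for fructose and galactose use, 4 and 5 of 16 for lactate and pyruvate, 0 and 5 of 24 for hormone and transcription control and 3 and 3 of 14 for hypoxia. With no scaling factor these became 6 and 2, 2 and 0, 4 and 3, 2 and 0, 5 and 0, 0 and 1, 7 and 2, 3 and 0, and 4 and 1. Pygl fell by 1.41, Gbe1 by 1.13 and Khk by 1.56 on the log2 scale, and Pfkfb2 rose by 1.16. Without DENKO_309 Gbe1 lost its call (adjusted p = 0.081).

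**Figure D4:**
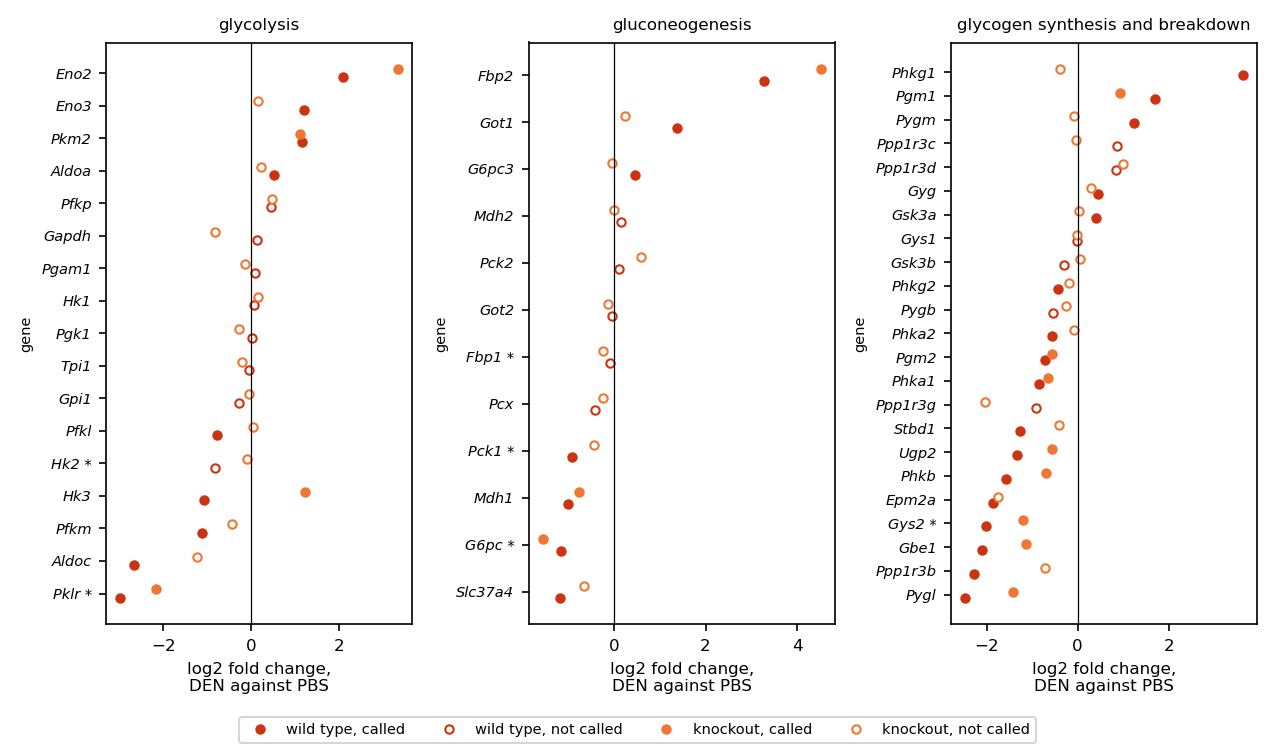
Log2 fold change after DEN in WT (red) and KO (orange) for tested genes of the glycolysis, gluconeogenesis and glycogen lists, ordered by the WT value. Filled points passed the test and asterisks mark members. Pklr and Aldoc are lowest in the glycolysis panel in WT, and Fbp2 and Phkg1, both of few counts, are highest in theirs.

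Knockout of TRIM21 under PBS left all 9 members uncalled. In edgeR, DESeq2 and limma-voom 0 of 9 passed, beside 0.00754% of all genes in edgeR, which is Trim21 alone. At an unadjusted p under 0.05 in edgeR there were 3 members, Slc2a2, Pklr and Gys2, all lower in KO, beside 3.83% of all genes. Slc2a2 was 1.66-fold lower (-0.73 on the log2 scale, SE 0.20, 95% interval -1.15 to -0.31, unadjusted p = 0.0024, adjusted p = 1), ranked 15 of 13255 by p, and was the one member whose PBS KO and PBS WT libraries did not overlap (8.2% of all genes did not). Pklr was at -0.76 (95% interval -1.38 to -0.14) and Gys2 at -0.55 (95% interval -1.08 to -0.02). PBSKO_549 was the lowest of its group for 8 of 9 members, and for 36% of all tested genes. Without it the Slc2a2 value was -0.52, the end of its range nearest 0 over libraries left out. Pck1 and Fbp1 stood at -0.38 (95% interval -0.86 to 0.10) and -0.22 (-0.68 to 0.25). The Slc2a1 value was -0.23 (-0.72 to 0.25), and G6pc, Hk2 and Pfkfb3 had values of 0.25, 0.10 and 0.01 that changed sign when 1 library was left out.

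After DEN, KO and WT livers again showed 0 of 9 members called by edgeR or limma-voom, against 22.1% of all genes in edgeR. At an unadjusted p under 0.05 there was 1, Pfkfb3, beside 37.1% of all genes. Pfkfb3 was 2.41-fold higher in DEN KO (1.27 on the log2 scale, SE 0.48, 95% interval 0.19 to 2.35, adjusted p = 0.089). DESeq2 called it (adjusted p = 0.013), as did edgeR with the 2 DEN groups fitted alone (0.0096) and without PBSKO_549 (0.038) or PBSWT_542 (0.036). Over all alternatives its adjusted p ran from 0.0096 to 0.26. Hk2 (0.85, 95% interval -0.19 to 1.89), Slc2a2 (0.27, -0.20 to 0.74), Gys2 (0.24, -0.34 to 0.83) and Pfkfb3 had DEN KO libraries above all DEN WT libraries, 4 of 9 members where 29% of all genes stood higher without overlap and 56.5% had no overlap in either direction. The other values were -0.37 for Fbp1 (-0.90 to 0.16), -0.15 for G6pc (-1.05 to 0.76), 0.11 for Pck1 (-0.43 to 0.64), -0.10 for Slc2a1 (-0.63 to 0.43) and 0.05 for Pklr (-0.65 to 0.75).

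Around these members some partners did differ between the DEN groups. Pfkfb1 was higher in DEN KO by 1.20 on the log2 scale (SE 0.22, adjusted p = 0.0039) and Mlxipl by 1.91 (SE 0.19, adjusted p = 0.00019), and both kept the call in all 18 alternatives. Mlxipl levels were 42.2, 54.1 and 55.4 CPM in DEN WT and 170 and 210 CPM in DEN KO, and 226 to 344 CPM over the 6 PBS libraries. Hk3, a hexokinase of blood cells, was higher by 2.21 and Pygl by 0.93, calls lost without DENKO_141 (adjusted p = 0.062 and 0.21). Pericentral markers differed in the same samples, with 6 of 10 called higher in DEN KO (median log2 fold change 1.54), where 22.1% of all genes were called. Other marker lists had fewer calls. Neutrophil and monocyte markers had 2 of 7 called higher and 0 lower, with a median of -0.56. Stellate cell and fibroblast markers had 2 of 8 called higher and 0 lower, with a median of 0.4. Lymphocyte markers (8 genes) summed to 1.53 to 1.80 CPM in DEN WT and 3.25 to 5.64 CPM in DEN KO, with 2 of 7 tested called higher (median 1.52), and 2 of 7 called in the test of the DEN response by genotype (median 1.75). The sum of 8 Kupffer cell and macrophage markers was at most 233 CPM in DEN WT and at least 295 CPM in DEN KO, with 1 of 8 called higher (median 0.91). Their part in these values was not tested.

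The test of whether the DEN response itself differed by genotype called 0 of 9 members in edgeR and in limma-voom, beside 6.58% of all genes in edgeR. At an unadjusted p under 0.05 there were 2 members, Slc2a2 and Gys2, beside 25.3% of all genes. The Slc2a2 response was 1.0 less negative on the log2 scale in KO (SE 0.29, 95% interval 0.37 to 1.63, adjusted p = 0.057), being -0.90 there and -1.90 in WT. DESeq2 called it (adjusted p = 0.021), as did edgeR with no filter on low counts (0.043) and without PBSKO_544 (0.033) or PBSKO_549 (0.05), and over all alternatives its adjusted p ran from 0.021 to 0.18. Its PBS KO mean was 209 ± 64.2 CPM (SD, n = 3) against 347 ± 41.5 in PBS WT, a difference not called after adjustment. The Gys2 difference was 0.79 (95% interval 0.01 to 1.58, adjusted p = 0.19) and was called without PBSKO_544 (1.17, adjusted p = 0.029). Pfkfb3 at 1.26 (-0.18 to 2.71), Pklr at 0.81 (-0.12 to 1.74), Hk2 at 0.74 (-0.66 to 2.15) and Pck1 at 0.49 (-0.23 to 1.21) were also positive, and G6pc was at -0.40 (-1.61 to 0.81), Fbp1 at -0.16 (-0.86 to 0.55) and Slc2a1 at 0.13 (-0.58 to 0.85), all with adjusted p of 0.25 or more. These values and the DEN KO against DEN WT values share the DEN libraries.

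Of the pathway list genes, 12 were called in this interaction, where 6.58% of all genes were called. By list, 3 of 19 glycolysis genes, 3 of 24 glycogen genes and 0 of 12 gluconeogenesis genes were called. All 12 were positive, that is less negative or more positive in KO. The split of calls by direction over all genes is not given here, so this is a description. Among the 12 were Hk3 and Pfkl in glycolysis, Pfkfb1, the glycogen genes Pygl and Phkb, Sord, Galm, Pdk1 and Mlxipl. Mlxipl was at 1.93 (SE 0.26, adjusted p = 0.0039) and alone kept the call in all 17 alternatives. Pfkfb1 at 1.39 (SE 0.29, adjusted p = 0.023) kept it in 14 of 17, losing it without DENKO_141, DENKO_309 or PBSWT_545. Leaving out DENKO_141 ended the call of the other 11 (adjusted p up to 0.29 over all alternatives). Among those named, Hk3 was the one whose response was called in both genotypes with opposite signs, -1.06 in WT and 1.24 in KO, each lost in 6 of 18 alternatives, among them DENKO_141, DENKO_309, DENWT_995 and PBSKO_154 left out in KO and DENWT_995, DENWT_996, PBSWT_542 and PBSWT_545 in WT.

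Across all 12 libraries, as a description over points that share the split between PBS and DEN, Pklr and Gys2 had the most similar profiles among the members (Pearson's r of log2 CPM 0.92), followed by Pck1 with Pklr (0.88), Pck1 with Gys2 (0.87) and Slc2a2 with Gys2 (0.85). Fbp1 went with none of the other members beyond 0.30, and Slc2a1 ran against Pklr (-0.77). Over all tested genes the profile most like that of Gys2 was Ppargc1b (0.986), that of Slc2a2 was Klhl9 (0.982), then Hlf (0.98), and that of Pklr was Tcf21 (0.978). For Slc2a1 it was Zfp37 (0.969) and for Pfkfb3 Plekha5 (0.958), then Sesn3 (0.957) and Hnf4a (0.955). For Hk2 it was Lrmp (0.932), for G6pc Cyp2c53-ps (0.931) and for Pck1 Zfyve9 (0.92). Fbp1 had the loosest best match, Chpf (0.863).

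The library labelled heterozygote was a single DEN library outside every comparison, and its levels are given as a description. It held 290 CPM of G6pc, 2600 of Pck1, 71.9 of Pklr, 19.7 of Pfkfb3, 103 of Gys2 and 30.3 of Slc2a2, all below the 6 PBS libraries. Slc2a2 was lower there than in any other library, the next being 85.4 CPM. Against the 3 DEN WT libraries, 5 members were above, 3 within and 1 below their range, and against the 2 DEN KO libraries 4 were above, 2 within and 3 below. A further library often falls outside the range of so few. The share of all genes outside these ranges was not counted, so these counts do not set the members apart. Slc2a1 counts exceeded Slc2a2 counts in this library only (ratio 1.10).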

How the data were processed

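The authors deposited 1 file per library of raw read counts per gene symbol, not normalized. The submitters' processing notes list bcl2fastq, TopHat2, HTSeq and the build mm9. The sources used here state no versions, annotation or strand setting, so reads of overlapping or near-identical genes cannot be told apart. The 5 tally lines of each file were left out of library sizes.

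The main test was edgeR 4.0.16's quasi-likelihood test in R 4.3.3 (robust, TMM, filterByExpr by group) in 1 fit of 11 libraries in 4 groups, with Benjamini-Hochberg adjustment over 13255 genes in each of 5 comparisons. An adjusted p under 0.05 made a call. SE is the absolute log2 fold change over the root of F. Intervals are 95%. DESeq2 1.42.0, limma-voom (limma 3.58.1), other scalings, no filter, 2-group fits, a fit with the heterozygote-labelled library and leaving out each library were alternatives. Where DEN KO was left with 1 library, it was assumed to vary like the other groups. Replicate libraries differed far beyond sampling noise (chi-square per degree of freedom 23.7 to 80.2). Ratios used count + 0.5. Exon lengths came from a GRCm38 annotation. The edgeR test was also run on simulated counts for every comparison but the interaction. Far fewer genes were changed there than were called after DEN in WT, and the outcome is not given here.

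Genes named are the 9 members, Trim21 and their isozymes. Others were drawn from the 3 most changed each way per list in WT and from the closest profiles. List genes called between genotypes after DEN or in the interaction (up to 3 a list) were a further source. Not every gene that meets these rules is named. Some further list genes were named after their values were seen. Members and lists were chosen with earlier results of these data known. Some list genes, and the ratios and profiles that involve them, are not reported here, while counts over a list include them.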

Additional observations from a re-analysis of the deposited data

Results flagged for a closer look

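In the library labelled heterozygote, which entered no test, 2 members lay above every PBS library. Fbp1 stood at 1560 CPM, where the 6 PBS libraries ran from 718 to 1260 CPM and the other 5 DEN libraries from 588 to 1130 CPM. Slc2a1 stood at 33.5 CPM, where the PBS libraries ran from 13.3 to 23.4 CPM and the other DEN libraries from 25.3 to 38.8 CPM. There is 1 such library, so neither difference was tested.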

How the results depend on the processing

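No paired analysis was possible because no replicate number occurs in more than 1 group. For DEN against PBS in KO, 3 members were called with no scaling factor and 3 with the 2 groups fitted alone, against 5, and 1 to 5 when a library was left out. In WT that range was 5 to 7 and under PBS 0. For KO against WT after DEN, DESeq2 called 1, the 2-group fit 1 and fits without a library 0 to 1, and for the interaction, 1 with no filter, 1 in DESeq2 and 0 to 2 without a library. The cause was not tested.

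Values that changed sign were small in the main fit, the largest in size being -0.4 (G6pc in the interaction). Some ran widely when a library was left out. With no scaling factor the DEN value was 0.41 for Fbp1 in WT and 0.15 in KO, 0.30 for Hk2 in KO, and Pklr between genotypes after DEN was at -0.05. With a library left out, Fbp1 ran from -0.20 to 0.08 in WT and from -0.59 to 0.05 in KO, and Hk2 in KO from -0.29 to 0.09. Between genotypes under PBS, Hk2 ran from -0.23 to 0.33, G6pc from -0.08 to 0.60 and Pfkfb3 from -0.32 to 0.32. After DEN, G6pc ran from -0.76 to 0.28, Pck1 from -0.22 to 0.37, Pklr from -0.18 to 0.39 and Slc2a1 from -0.22 to 0.12. In the interaction, G6pc ran from -1.01 to 0.03, Fbp1 from -0.51 to 0.13 and Slc2a1 from -0.03 to 0.35. Of list genes called, 46 of 77 in WT and 7 of 41 in KO kept the call in every alternative, 3 of 24 between genotypes after DEN and 1 of 12 in the interaction. Hk2, at 9 to 40 counts a library, is the member that depth limits most.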
